A study of Mus musculus with 2 samples.

Results

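Neuropeptide genes encode the precursors of peptide transmitters, and 10 of them were followed in mouse brain: Sst, Npy, Vip, Cck, Penk, Pdyn, Tac1, Cort, Nts and Agrp. They were taken by name from the 13381 protein-coding genes of the deposited gene table, and all 10 were listed there. The samples were RNA from brain of C57BL/6J mice in 2 libraries, 1 with the title miR-7KD (mouse number 3) and 1 with the title WT (mouse number 7). By the study's methods, miR-7-deficient (miR-7def) and wild-type mice received lipopolysaccharide (LPS), a bacterial outer membrane component that provokes inflammation, at 2.5 mg/kg into the peritoneum, and brain was taken 12 h later. The labels do not mention LPS, and they give an age of 6 to 8 weeks where the methods give 8 to 10. Titles and genotype fields disagree, since the mouse with the title miR-7KD is entered as wild type and the mouse with the title WT as miR-7 KD. Each library is therefore called miR-7KD-titled or WT-titled, and no direction is tied to a genotype. No miR-7 locus is in the gene table, so the titles could not be checked on the targeted gene. The descriptions present each library as representative of 3 biological replicates, but only these libraries were analysed, so there is no replicate error and no test, and every difference is one between these libraries. Levels are FPKM, fragments scaled to transcript length and to the number of mapped fragments, so that levels of different genes can be compared. The sources used here do not state read depth or brain region.

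Neuropeptides are made as larger precursors, cut at pairs of basic residues by prohormone convertases in dense-core vesicles, and released to act on G protein-coupled receptors. In the forebrain Sst, Vip, Npy and Cck mark classes of GABAergic interneurons, although Cck is also abundant in excitatory cortical neurons. Penk, Pdyn and Tac1 are made by projection neurons of the striatum, and Agrp by hunger-promoting neurons of the hypothalamus. In bulk tissue, fewer cells of a type and less RNA per cell cannot be told apart.

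Sst and Cort encode related precursors whose peptides bind the same receptors. Their coding stretches are shown for this likeness, with the codons for phenylalanine, tryptophan, lysine and threonine, the receptor-binding core of somatostatin, in capitals. The Sst stretch lies at chr16:23889738-23889767 and the Cort stretch at chr4:149125276-149125305, both on the reverse strand of GRCm38 and in exon 2 of 2 (GENCODE M21).
Sst: tgcaagaacttcTTCTGGAAGACAttcaca
Cort: tgcaagaacttcTTCTGGAAAACCttctcc
The stretches share 26 of 30 bases. Penk and Pdyn encode opioid peptides that open with tyrosine, glycine, glycine and phenylalanine, whose codons are in capitals in the next pair. The lower-case ends include the codons of a pair of basic residues on each side. Whether the precursor is cut at each pair was not checked. The Penk stretch lies at chr4:4134328-4134354 in exon 2 of 2 of Penk-001 and the Pdyn stretch at chr2:129688232-129688258 in exon 4 of 4, both on the reverse strand.
Penk: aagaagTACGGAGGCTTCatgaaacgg
Pdyn: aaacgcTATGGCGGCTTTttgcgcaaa
These share 13 of 27 bases, and the Penk precursor holds the run of 4 residues 7 times and the Pdyn precursor 3 times. The Sst promoter is shown because an unannotated transcript described further on spans it. Its capitals mark TGACGTCA, the cAMP response element bound by the activity-regulated factor CREB, from -48 to -41 relative to the start at base 23890844 (RefSeq, GRCm38.p6, chr16:23890874-23890903, reverse strand).
Sst promoter: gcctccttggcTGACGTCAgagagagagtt
RefSeq promoters, from 250 bases before to 50 after the start, were matched for 8 of the 10 genes. TGACGTCA, which reads the same on both strands, was in 1 of these 8 genes and in 1.79% of all 32851 promoters. Its shorter core TGACG, which lies within TGACGTCA, was on either strand in 6 of the 8 and in 20.8% of all promoters.

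A gene was called higher or lower where it reached 1 FPKM in at least 1 of the libraries and its log2 ratio, miR-7KD-titled over WT-titled with 0.1 added to each value, was at least 1 in size. Of the 10 genes 9 reached this level, all but Agrp. By gene-table values Sst, Pdyn and Nts were higher (3 genes) and Vip was lower (1 gene). Of all 11969 genes at this level, 6.01% were higher and 5.58% lower, 11.6% in either direction. The 9 genes had a median log2 ratio of -0.01, the same as all genes (-0.01). By level, the order in the miR-7KD-titled library was Sst, Cck, Npy, Penk, Pdyn, Vip, Nts, Tac1, Cort and Agrp. In the WT-titled library it was Cck, Npy, Vip, Penk, Sst, Cort, Tac1, Nts, Pdyn and Agrp. Without replicates it cannot be said which neighbours in these orders differ. At a 3-fold threshold Sst and Pdyn were higher and no gene was lower, where 3.28% of all genes were higher and 3.07% lower, 6.34% in either direction.

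**Figure D1:**
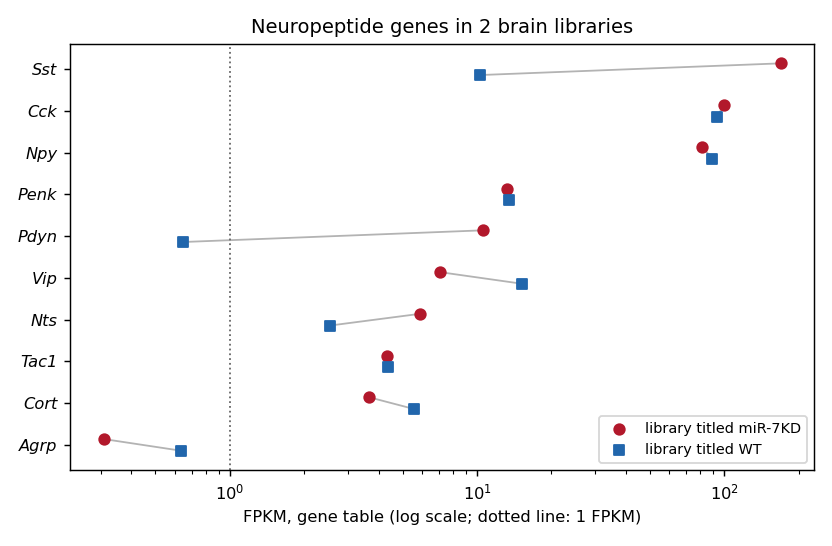
FPKM of the 10 neuropeptide genes in the gene table on a log axis, with 1 point per library (circles, miR-7KD-titled; squares, WT-titled) and a dotted line at 1 FPKM. Sst (169 FPKM miR-7KD-titled, 10.3 FPKM WT-titled) and Pdyn (10.6 FPKM miR-7KD-titled, 0.646 FPKM WT-titled) lie furthest apart, and the points of Cck, Npy, Penk and Tac1 lie close together.

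Sst (ENSMUSG00000004366.3, chr16:23889581-23890844, reverse strand, 2 exons) encodes somatostatin, an inhibitor of hormone and transmitter release. It was at 169 FPKM in the miR-7KD-titled library and 10.3 FPKM in the WT-titled library. The ratio was 16.4 and the log2 ratio 4.02. By level Sst ranked 92 of 13381 genes in the miR-7KD-titled library and 3651 in the WT-titled library. It took 42.8% of the summed FPKM of the 10 genes in the miR-7KD-titled library (395 FPKM) and 4.37% in the WT-titled library (236 FPKM). The other 9 genes together summed to 226 FPKM in the miR-7KD-titled library and 225 FPKM in the WT-titled library, so that nearly all of the difference between the sums lay in Sst. These sums and shares leave out the unannotated transcripts described below. With those on the same strand added, the 10 genes summed to 417 FPKM in the miR-7KD-titled library and 381 FPKM in the WT-titled library. Among genes at 5 FPKM or more, the 3 whose log2 ratio was nearest to that of Sst were Fam104a (4.03), Cd93 (3.96) and 2310011J03Rik (4.17), a likeness over 2 libraries only.

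An unannotated transcript of 3 exons and 1068 bases, at chr16:23889574-23891443, spans the whole of Sst on the same strand. It was listed at 0 in the miR-7KD-titled library and stood at 93.1 FPKM in the WT-titled library. It begins 599 bases before the listed start of Sst, so the cAMP response element shown above falls inside its span, and the table does not state whether that element is in an exon of it. With this transcript added, Sst was at 169 FPKM in the miR-7KD-titled library and 103 FPKM in the WT-titled library. The log2 ratio was then 0.71, below the 2-fold threshold, and the unannotated transcript made up 90.0% of the WT-titled value. FPKM is divided by length, and the listed transcript, Sst-201, has 599 bases. Multiplied by length in kb and summed, the signal over Sst was 101 FPKM × kb in the miR-7KD-titled library and 106 FPKM × kb in the WT-titled library, a ratio of 0.960. The libraries thus differed in which transcript of the locus the signal was assigned to. The 16.4-fold difference of the gene table was not present in the sum. Whether the transcripts made from the locus differed was not tested.

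**Figure D2:**
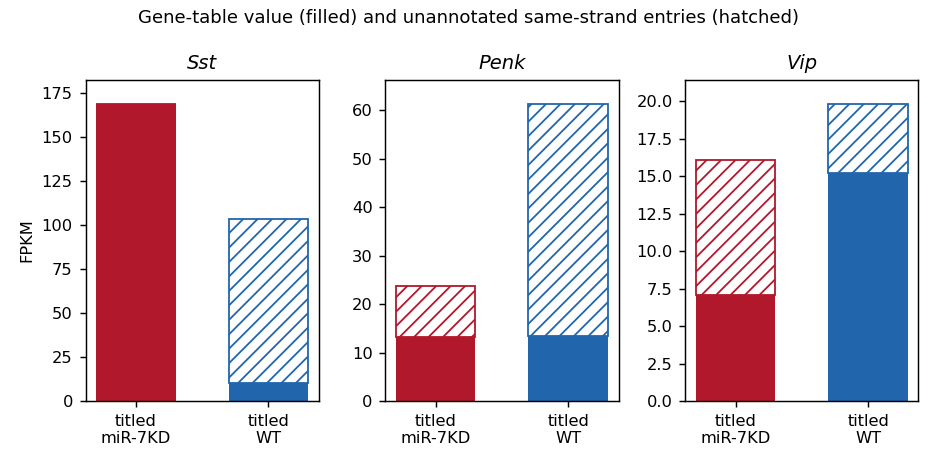
FPKM in the gene table (filled) and of unannotated transcripts over the same gene and strand (hatched) for Sst, Penk and Vip, with the miR-7KD-titled library on the left and the WT-titled library on the right of each panel. The hatched part is absent for Sst in the miR-7KD-titled library and is 93.1 FPKM in the WT-titled library.

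Cort (chr4:149125034-149126763, reverse strand, 2 exons) encodes cortistatin, a peptide of cortical interneurons that binds somatostatin receptors. It was at 3.67 FPKM in the miR-7KD-titled library and 5.56 FPKM in the WT-titled library. Its log2 ratio of -0.59 was below the threshold, and no unannotated transcript overlapped it.

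Pdyn (ENSMUSG00000027400.11, chr2:129686565-129699844, reverse strand, 4 exons) is the precursor of the dynorphins, which act on the kappa opioid receptor. It was at 10.6 FPKM in the miR-7KD-titled library and 0.646 FPKM in the WT-titled library. The ratio was 16.4 and the log2 ratio 3.84. Its listed transcript Pdyn-001, of 2386 bases, was at 12.7 FPKM in the miR-7KD-titled library and 0.749 FPKM in the WT-titled library. No unannotated transcript overlapped Pdyn on either strand, so that, unlike Sst, it had the same ratio with such transcripts added.

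Penk (chr4:4133531-4138819, reverse strand, 3 exons) is the precursor of the enkephalins. It was at 13.2 FPKM in the miR-7KD-titled library and 13.5 FPKM in the WT-titled library. The log2 ratio was -0.03, and the listed transcripts Penk-001 (2.19 FPKM miR-7KD-titled, 2.37 FPKM WT-titled) and Penk-002 (25.5 FPKM miR-7KD-titled, 25.8 FPKM WT-titled) were as close. An unannotated transcript of 3 exons and 1323 bases over the same span and strand was at 10.6 FPKM in the miR-7KD-titled library and 47.95 FPKM in the WT-titled library. With it added Penk was at 23.8 FPKM in the miR-7KD-titled library and 61.4 FPKM in the WT-titled library, a log2 ratio of -1.36, past the threshold. The listed transcripts sum to more than the gene value, and with their sum in its place the total was 38.3 FPKM in the miR-7KD-titled library and 76.1 FPKM in the WT-titled library, a log2 ratio of -0.99, just short of the threshold. Penk was thus level in the gene table. Once the unannotated transcript was counted, Penk was past the threshold with the gene value and just short of it with the listed transcripts.

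Nts (chr10:102481760-102490418, reverse strand, 4 exons) encodes neurotensin, which modulates dopamine neurons. It was at 5.88 FPKM in the miR-7KD-titled library and 2.55 FPKM in the WT-titled library. The log2 ratio was 1.17, and no unannotated transcript overlapped it. Adding 1 FPKM rather than 0.1 before taking logs put Nts at 0.95, below the threshold, where 4.34% of all genes were higher.

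Vip (chr10:5639218-5647614, forward strand, 7 exons) encodes vasoactive intestinal peptide, a marker of interneurons that inhibit other interneurons. It was at 7.06 FPKM in the miR-7KD-titled library and 15.2 FPKM in the WT-titled library. The log2 ratio was -1.10. Unannotated transcripts of 7 exons over the same span and strand, 2 in number, summed to 9.01 FPKM in the miR-7KD-titled library and 4.62 FPKM in the WT-titled library. With them added Vip was at 16.1 FPKM in the miR-7KD-titled library and 19.8 FPKM in the WT-titled library, a log2 ratio of -0.30, below the threshold.

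Cck (chr9:121489825-121495689, reverse strand, 3 exons) encodes cholecystokinin, a satiety peptide that is abundant in cortex. It was at 100.1 FPKM in the miR-7KD-titled library and 93.2 FPKM in the WT-titled library, a log2 ratio of 0.10. Npy (chr6:49822710-49829507, forward strand, 4 exons) encodes the appetite-stimulating neuropeptide Y and was at 81.2 FPKM in the miR-7KD-titled library and 89.7 FPKM in the WT-titled library, a log2 ratio of -0.14. Tac1 (chr6:7554879-7565834, forward strand, 7 exons), the precursor of substance P, was at 4.33 FPKM in the miR-7KD-titled library and 4.36 FPKM in the WT-titled library, a log2 ratio of -0.01. These genes were nearly level and had no unannotated transcript on their strand.

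Agrp (chr8:105566698-105637393, reverse strand) encodes agouti-related peptide, an antagonist of melanocortin receptors. It was at 0.309 FPKM in the miR-7KD-titled library and 0.636 FPKM in the WT-titled library, below 1 FPKM in both. The listed transcript is the 6-exon Agrp-002, which takes in the whole interval. An unannotated transcript of 1 exon and 378 bases inside it and on its strand (chr8:105585688-105586065) was at 1.66 FPKM in the miR-7KD-titled library and listed at 0 in the WT-titled library. Counted as Agrp, it changed the log2 ratio to 1.49, against -0.85 without it, and the length-weighted sum gave 0.48, under the threshold.

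On the opposite strand, unannotated transcripts lay over Sst (1.27 FPKM miR-7KD-titled, 2.09 FPKM WT-titled), Cck (0.902 FPKM miR-7KD-titled, 1.501 FPKM WT-titled) and Penk (listed at 0 miR-7KD-titled, 1.21 FPKM WT-titled), and over Agrp. The sources used here do not say whether counting used strand, without which reads of the 2 strands cannot be told apart. None of those over Sst, Cck and Penk reached 3 FPKM.

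With unannotated transcripts on the same strand added, Pdyn, Nts and Agrp were higher (3 genes) and Penk was lower (1 gene). Agrp was counted only through the 1-exon transcript inside its interval, and its length-weighted sum was under the threshold. Of 12085 genes at 1 FPKM or more by this sum, 7.06% were higher and 6.41% lower, 13.5% in either direction. Of all genes at 1 FPKM or more in the gene table, 40.4% had such a transcript, as had 3 of the 9 neuropeptide genes at that level. Of the 384 called genes with one, 229 were called the same way after the addition, 149 were no longer called and 6 were called the other way. Of 4453 uncalled genes with one, 335 became called. Such changes of call were therefore found across the gene table as well.

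**Figure D3:**
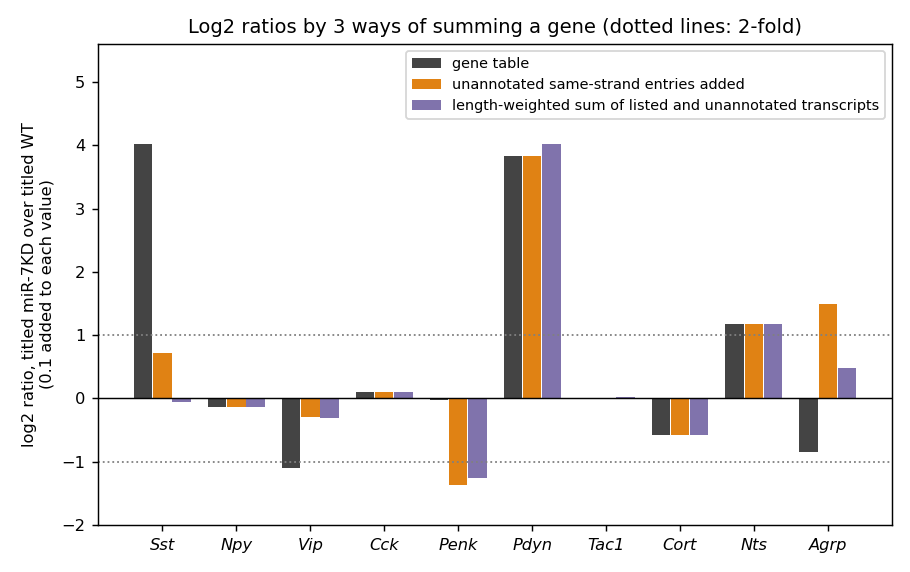
Log2 ratios of the 10 neuropeptide genes, miR-7KD-titled over WT-titled with 0.1 added to each value, from the gene table (dark grey), with unannotated transcripts on the same strand added (orange) and as length-weighted sums of listed and unannotated transcripts (violet), with dotted lines at 2-fold. Sst is at 4.02, 0.71 and -0.059, while Pdyn is at 3.84, 3.84 and 4.02.

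Most of the 10 genes have few exons, and the share of called genes differed with exon number over the whole gene table. It was 38.8% of 472 genes of 2 exons, 23.1% of 1596 genes of 3 or 4, 13.9% of 2517 genes of 5 to 7 and 5.25% of 7149 genes of 8 or more. Of Sst and Cort, with 2 exons, 1 was called. Of Npy, Cck, Penk, Pdyn and Nts, with 3 or 4 exons, 2 of 5 were called. Of Vip and Tac1, with 7 exons, 1 was called. Crh, Rln3, Npy5r, Slc32a1, Drd1 and Gja1, called genes of the lists below, also have 2 exons. The part of exon number in the differences of all these genes was not tested.

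**Figure D4:**
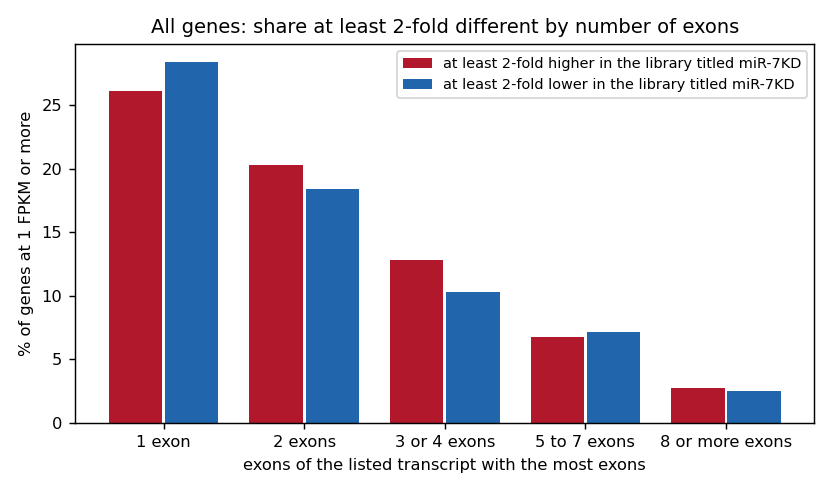
Percentage of all genes at 1 FPKM or more that were at least 2-fold higher (red) or lower (blue) in the miR-7KD-titled library, by the number of exons of the listed transcript with the most exons. The shares were 20.3% higher and 18.4% lower at 2 exons, against 2.73% higher and 2.52% lower at 8 or more.

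Of 38 other neuropeptide precursors, 24 were listed and 20 reached 1 FPKM. Of these 1 was higher and 2 were lower, and their median log2 ratio was -0.07. Of all 11969 genes at this level, 6.01% were higher and 5.58% lower, the shares to set beside this list and those below. Crh, which encodes the hypothalamic releasing hormone of the stress axis, was at 2.93 FPKM in the miR-7KD-titled library, whereas the WT-titled library had it listed at 0. Cartpt, a precursor of appetite-reducing peptides, was at 1.13 FPKM in the miR-7KD-titled library and 8.92 FPKM in the WT-titled library. Its log2 ratio was -2.88, and -0.95 with an unannotated transcript added. Rln3, which encodes a relaxin, was near the minimum level (0.397 FPKM miR-7KD-titled, 1.12 FPKM WT-titled). Pmch, which encodes melanin-concentrating hormone, was the most abundant (33.6 FPKM miR-7KD-titled, 26.1 FPKM WT-titled).

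Receptor genes of the 10 peptides and of the Vip-related peptide PACAP numbered 26, of which 14 were listed, all at 1 FPKM or more. Of these 3 were higher and 2 lower, and their median log2 ratio was -0.15. Over all genes at this level, 11.6% were called in either direction. The somatostatin receptors Sstr1 (1.197 FPKM miR-7KD-titled, 1.44 FPKM WT-titled) and Sstr2 (2.32 FPKM miR-7KD-titled, 3.46 FPKM WT-titled) were below the threshold. Oprd1, the delta receptor of the enkephalins, was at 1.43 FPKM in the miR-7KD-titled library and 0.0800 FPKM in the WT-titled library, a log2 ratio of 3.09. Ntsr1, a neurotensin receptor of neurons, was at 1.76 FPKM in the miR-7KD-titled library and 0.0836 FPKM in the WT-titled library, a log2 ratio of 3.34. Another neurotensin receptor gene, Ntsr2, was the most abundant of the list and was below the threshold (66.5 FPKM miR-7KD-titled, 59.03 FPKM WT-titled). Npy5r, a receptor of neuropeptide Y in feeding, was at 0.0568 FPKM in the miR-7KD-titled library and 2.99 FPKM in the WT-titled library. Its log2 ratio was -4.30, and -1.48 with an unannotated transcript added, while Npy1r was below the threshold (3.45 FPKM miR-7KD-titled, 3.96 FPKM WT-titled). Adcyap1r1, the receptor of the Vip-related peptide PACAP, was higher (13.8 FPKM miR-7KD-titled, 5.77 FPKM WT-titled), and Cckbr, the main cholecystokinin receptor of brain, was lower (2.44 FPKM miR-7KD-titled, 5.43 FPKM WT-titled).

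**Figure D5:**
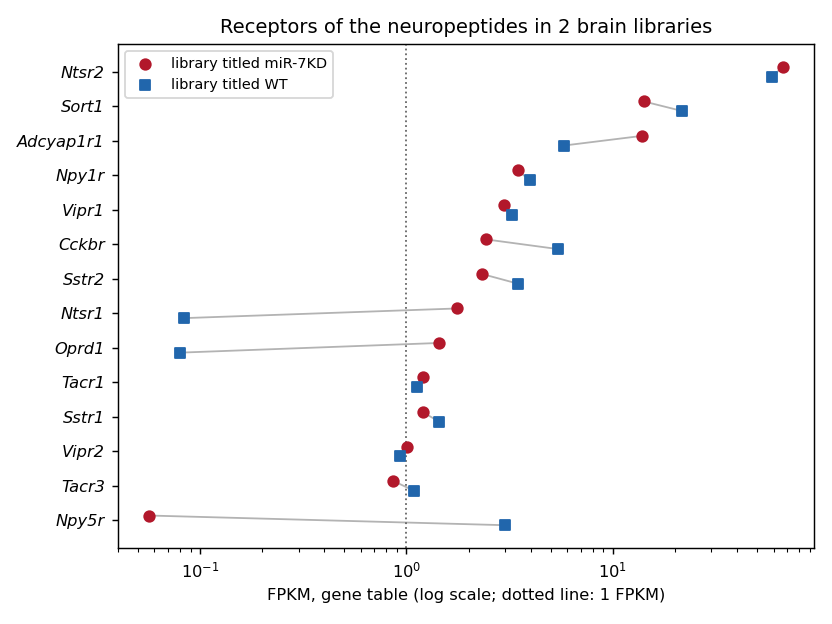
FPKM of the 14 listed receptor genes in the gene table on a log axis, with 1 point per library (circles, miR-7KD-titled; squares, WT-titled). Npy5r (0.0568 FPKM miR-7KD-titled, 2.99 FPKM WT-titled), Ntsr1 (1.76 FPKM miR-7KD-titled, 0.0836 FPKM WT-titled) and Oprd1 (1.43 FPKM miR-7KD-titled, 0.0800 FPKM WT-titled) lie furthest apart, each under 0.1 FPKM in one of the libraries.

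The 20 genes of prohormone processing and dense-core vesicles all reached 1 FPKM. Of these 0 were higher and 1 was lower, and their median log2 ratio was -0.06. The lower gene was Vgf, a secreted precursor induced by neurotrophins, at 0.798 FPKM in the miR-7KD-titled library and 48.4 FPKM in the WT-titled library. Its log2 ratio was -5.76, and -3.99 with unannotated transcripts added. Cpe, which encodes the carboxypeptidase that trims basic residues left by the convertases, was the most abundant (503 FPKM miR-7KD-titled, 252 FPKM WT-titled) and just under the threshold. The convertase genes Pcsk1 (3.25 FPKM miR-7KD-titled, 3.64 FPKM WT-titled) and Pcsk2 (14.98 FPKM miR-7KD-titled, 16.2 FPKM WT-titled) were nearly level. Scg2, which encodes a secretogranin, was below the threshold (78.3 FPKM miR-7KD-titled, 109 FPKM WT-titled) but was lower with unannotated transcripts added (78.3 FPKM miR-7KD-titled, 213 FPKM WT-titled). Of 11 listed genes of peptidase families linked to the breakdown of neuropeptides, 0 were higher and 1 was lower. Their median log2 ratio was -0.20. The lower gene was Mme, which encodes neprilysin (0.465 FPKM miR-7KD-titled, 1.29 FPKM WT-titled), and with an unannotated transcript added its log2 ratio was -0.43. Dpp6, counted by family although its protein is not an active peptidase, was the most abundant of that list (19.8 FPKM miR-7KD-titled, 20.995 FPKM WT-titled).

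Markers of the neurons that make these peptides are given beside them. Their counts stand beside 6.01% higher and 5.58% lower over all genes at 1 FPKM or more. Of 21 listed markers of GABAergic and Sst interneurons, 18 reached 1 FPKM, 3 were higher and 0 lower, with sums over the list of 231 FPKM in the miR-7KD-titled library and 213 FPKM in the WT-titled library. The higher genes were Slc32a1, the vesicular GABA transporter (7.76 FPKM miR-7KD-titled, 0.846 FPKM WT-titled), Grin3a, a glutamate receptor subunit (3.42 FPKM miR-7KD-titled, 1.42 FPKM WT-titled), and Erbb4, the neuregulin receptor (4.82 FPKM miR-7KD-titled, 2.28 FPKM WT-titled). Gad1 (42.2 FPKM miR-7KD-titled, 34.01 FPKM WT-titled) and Gad2 (9.91 FPKM miR-7KD-titled, 10.04 FPKM WT-titled), the enzymes of GABA synthesis, and Lhx6, a transcription factor of Sst interneurons (2.41 FPKM miR-7KD-titled, 1.88 FPKM WT-titled), were below the threshold. Pvalb, the most abundant, was so too (76.7 FPKM miR-7KD-titled, 81.2 FPKM WT-titled). Of 9 listed markers of Vip, Cck and related interneurons, 0 were higher, 1 was lower and the other 8 were below the threshold. The lower gene was Lamp5 (19.5 FPKM miR-7KD-titled, 48.1 FPKM WT-titled), which mainly marks an interneuron class other than the Vip and Cck cells. Sums over the list, Lamp5 included, were 100.03 FPKM in the miR-7KD-titled library and 127 FPKM in the WT-titled library. Chat, the enzyme of acetylcholine synthesis, was below the threshold (1.59 FPKM miR-7KD-titled, 0.881 FPKM WT-titled) but was higher with an unannotated transcript added (3.15 FPKM miR-7KD-titled, 0.881 FPKM WT-titled). Interneuron markers at 0 in either library numbered 0.

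Of 15 markers of striatal projection neurons, 13 reached 1 FPKM, 2 were higher and 3 lower, with sums of 190 FPKM in the miR-7KD-titled library and 231 FPKM in the WT-titled library. Drd1, the dopamine receptor of the neurons that make Pdyn and Tac1, was at 2.38 FPKM in the miR-7KD-titled library, whereas the WT-titled library had it listed at 0. With an unannotated transcript added Drd1 was at 9.39 FPKM in the miR-7KD-titled library and 6.797 FPKM in the WT-titled library. Ppp1r1b, which encodes DARPP-32, was higher and the most abundant (74.1 FPKM miR-7KD-titled, 30.8 FPKM WT-titled). The lower genes were Scn4b, a sodium channel subunit (5.33 FPKM miR-7KD-titled, 43.02 FPKM WT-titled), Rasd2, a small GTPase (4.39 FPKM miR-7KD-titled, 32.7 FPKM WT-titled), and Gng7, a G protein subunit (7.06 FPKM miR-7KD-titled, 35.6 FPKM WT-titled). Drd2, the dopamine receptor of the neurons that make Penk, was below the threshold (6.16 FPKM miR-7KD-titled, 5.03 FPKM WT-titled). These markers thus did not move one way.

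Of 10 hypothalamic transcription factors 3 were listed and 2 reached 1 FPKM. Six3 was just past the threshold (1.88 FPKM miR-7KD-titled, 0.883 FPKM WT-titled), with a log2 ratio of 1.01. Otp was nearly level (1.11 FPKM miR-7KD-titled, 1.21 FPKM WT-titled). Nkx2-1 was under 1 FPKM in both libraries (0.530 FPKM miR-7KD-titled, 0.669 FPKM WT-titled). Cortical excitatory markers had 0 higher and 1 lower of 10, Tbr1 (3.88 FPKM miR-7KD-titled, 16.3 FPKM WT-titled), with Nrgn the most abundant (555 FPKM miR-7KD-titled, 522 FPKM WT-titled). Cux1, a transcription factor of upper-layer neurons, was nearly level (2.13 FPKM miR-7KD-titled, 1.997 FPKM WT-titled) but was lower with unannotated transcripts added (2.13 FPKM miR-7KD-titled, 17.3 FPKM WT-titled). Cerebellar markers had 2 higher and 0 lower of 10, Calb1 (50.8 FPKM miR-7KD-titled, 17.6 FPKM WT-titled) and Cbln3 (2.72 FPKM miR-7KD-titled, 0.995 FPKM WT-titled). Calb1 is not confined to the cerebellum. The other 8 were below the threshold, some leaning higher and some lower. Pan-neuronal markers had 0 higher and 1 lower of 10, Elavl4 (9.68 FPKM miR-7KD-titled, 27.9 FPKM WT-titled), with Snap25 the most abundant (221 FPKM miR-7KD-titled, 221 FPKM WT-titled). Of 6 astrocyte markers 0 were higher and 2 lower. Sums over the list were 159 FPKM in the miR-7KD-titled library and 336 FPKM in the WT-titled library. The lower ones were Slc1a2 (24.5 FPKM miR-7KD-titled, 141 FPKM WT-titled) and Gja1 (1.15 FPKM miR-7KD-titled, 46.5 FPKM WT-titled). Gfap, Slc1a3, Aqp4 and Aldh1l1 were below the threshold. Of 6 microglial markers 0 were higher and 1 lower, with sums of 22.1 FPKM in the miR-7KD-titled library and 21.8 FPKM in the WT-titled library. The lower one was Cx3cr1, the fractalkine receptor (0.0172 FPKM miR-7KD-titled, 3.03 FPKM WT-titled), which was below the threshold with an unannotated transcript added (4.93 FPKM miR-7KD-titled, 8.39 FPKM WT-titled). Of 6 endothelial markers 4 reached 1 FPKM, 1 was higher and 0 lower. Sums over the list were 42.2 FPKM in the miR-7KD-titled library and 15.9 FPKM in the WT-titled library. The higher one was Cldn5, of 1 exon (24.7 FPKM miR-7KD-titled, listed at 0 WT-titled). Pecam1, Cdh5 and Flt1 were below the threshold. Markers of oligodendrocytes, erythroid cells and choroid plexus had 0 genes past the threshold. The RNA protocol in the labels speaks of retinas, but of 7 retinal markers 1 was listed, under 1 FPKM in both libraries, and of 6 pituitary markers 0 were. The part of cell and region makeup in the differences of the neuropeptide genes was not tested.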

How the data were processed

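The authors deposited FPKM per library for protein-coding genes, their transcripts, unannotated genes (not used) and unannotated transcripts. The submitters' notes name Bowtie 0.12.2 and the mm8 build, yet positions fit GRCm38. The program behind the FPKM values was not given. Columns were matched to samples by mouse number. Genes whose higher value was under 0.501 FPKM, and unannotated transcripts under 1.00 FPKM, are not listed. No read counts were used, so no counting error is given, and an exact 0 is written as listed at 0.

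Log2 ratios had 0.1 FPKM added to both values, which understates the change of low genes. A 2-fold change was the threshold, as in the study, but the added 0.1 FPKM and the minimum of 1 FPKM were chosen here. Unannotated transcripts were assigned to a gene whose span they overlapped on the same strand. Exon numbers and lengths came from GENCODE M21 by transcript ID without version, with exons clipped to the deposited ends. Where several transcripts are listed, the gene value need not be their sum.

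The 10 genes, 11 related lists and 8 cell marker lists were chosen with earlier results of these data known. From each related list, up to 4 genes with the largest log2 ratios past 2-fold and the most abundant gene were named. Sstr1, Sstr2, Npy1r, Cckbr, Pcsk1, Pcsk2, Scg2, Gad1, Gad2, Lhx6, Drd2, Chat, Cux1, Cx3cr1 and Cldn5 were named after their values were seen. So were Otp, Nkx2-1, Slc1a2, Gja1, Gfap, Slc1a3, Aqp4, Aldh1l1, Pecam1, Cdh5 and Flt1. Alternatives were other pseudocounts (0.01 and 1), rescaling so that the median gene had a log2 ratio of 0, minimum levels of 0 or 5 FPKM, a 3-fold threshold, sums of listed transcripts, and unannotated transcripts added. The code was tested on simulated data. Python 3.11.15, numpy 2.4.6, pandas 2.3.3 and matplotlib 3.10.9 were used.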

Additional observations from a re-analysis of the deposited data

How the results depend on the processing

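The log2 ratios of Sst, Vip, Penk and Agrp depended on which transcripts were summed. With unannotated transcripts on the same strand added, Sst was at 0.71, Vip at -0.30, Penk at -1.36 and Agrp at 1.49, in place of 4.02, -1.10, -0.03 and -0.85 in the gene table. With those of 2 or more exons alone, Sst was at 0.71, Vip at -0.30 and Penk at -1.36, and Agrp stayed under 1 FPKM. Length-weighted sums of listed and unannotated transcripts gave -0.059 for Sst, a change of sign close to 0, -0.30 for Vip, -1.26 for Penk and 0.48 for Agrp. By these sums 2 of the neuropeptide genes were higher and 1 was lower. The sums were made for the neuropeptide genes alone, so this count has no share over all genes beside it. The last 2 settings were chosen after seeing the data. With a pseudocount of 1, Nts was at 0.95, and over all genes 519 were higher and 479 lower, in place of 719 and 668. With a 3-fold threshold 2 of the neuropeptide genes were past it and 0 were lower, and over all genes 392 were higher and 367 lower. Pdyn ranged from 2.81 to 4.02 over its alternatives, and the median of the neuropeptide genes from -0.02 to 0.05. Beyond the construction of these sums, the cause was not tested. No paired analysis was possible because each title has 1 library and the mouse numbers differ, and for the same reason no library could be left out. FPKM alone does not give depth, so the precision of low values such as those of Agrp, Oprd1 and Ntsr1 is not known.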
